A study of Mus musculus with 12 samples.

Results

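Livers that lacked Mlkl were compared with wild-type livers after long feeding on a high-fat diet (HFD). The comparison holds 6 of the 12 liver libraries of the series, 3 from Mlkl-/- and 3 from wild-type animals, each group defined by its genotype and diet labels. Mlkl-/- HFD replicates 1, 2 and 3 are animals 910, 915 and 1219, and wild-type HFD replicates 1, 2 and 3 are animals 904, 1229 and 1231. Mice entered the diet at 8 to 9 weeks of age. The HFD had 36% fat and drew 59% of its energy from lipid. The labels give 25 weeks of feeding, and the series text gives 16 to 25. The other 6 libraries are wild-type and Mlkl-/- livers on normal chow (ND), 3 of each, and they serve here for the spread and for the same genotype contrast without the diet. The animals were fed when liver was taken and had been picked by mean organ weight, so they are not a random draw of their cohorts. The sources used here give no sex, no strain and no position of the Mlkl deletion. Nothing in the labels limits the deletion to a cell type.

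MLKL is the pseudokinase that carries out necroptosis, a regulated death in which the cell bursts. The kinase RIPK3 phosphorylates MLKL, which then oligomerises and breaks the plasma membrane. In fatty liver disease hepatocytes store triglyceride, resident macrophages (Kupffer cells) are joined by monocyte-derived cells, stellate cells lay down collagen, and the sinusoidal endothelium that lines the blood spaces loses its specialised state. The question the comparison addresses is what the absence of Mlkl changes in a liver under that load.

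The 6 HFD libraries held 19435391 to 28431749 counts. Hepatocyte markers, for which the 14 listed genes found in the table summed to 82649 to 111280 CPM (counts scaled to a common library size) in wild-type and 108909 to 143036 in Mlkl-/- livers, are at the level of a liver sample. Normalisation factors of the TMM method, which rescale each library by the bulk of its genes, were 1.07 to 1.16 in wild-type and 0.930 to 1.03 in Mlkl-/- HFD libraries, so the groups did not overlap. Each title carries a code after the diet whose meaning is not given. Code 25 stands on wild-type HFD replicate 1 and Mlkl-/- replicates 1 and 2, and code 29 on wild-type replicates 2 and 3 and Mlkl-/- replicate 3. At 8 loci of small RNAs and Lars2 wild-type HFD replicate 1 held 534 raw CPM in sum, and the other 5 HFD libraries held 3484 to 6964. Skeletal muscle transcripts stood out in Mlkl-/- HFD replicate 2, where the 6 listed genes did not all pass the count filter but the 3 that did summed to 151 CPM, against 2.67 to 6.89 in the other 5. Wild-type HFD replicate 3 stood apart from the other wild-type livers in macrophage and sex-biased genes, as given below.

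Mlkl itself checked the labels. Wild-type HFD replicates 1 to 3 held 134, 252 and 88 Mlkl counts, or 5.37, 7.65 and 4.24 CPM. Mlkl-/- HFD replicates held 16, 9 and 34 counts, or 0.763, 0.433 and 1.40 CPM. Every Mlkl-/- library was below every wild-type library, and the mean fell from 5.75 ± 1.74 to 0.866 ± 0.492 CPM (SD, n = 3). The log2 difference was -2.71 ± 0.36 (SE; edgeR adjusted p = 0.0166). Reads at the 3′ end of a gene do not show whether the rest of the transcript is present, so the remaining counts cannot be read as intact transcript. Mlkl lies on chromosome 8 at 111311797 to 111338177 on the minus strand of mm10. Of 79 tested genes within 5 Mb of it 0 were called by edgeR, and 10 (12.7%) had an unadjusted p under 0.05, 3 of them lower, against 15.5% of all genes.

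Across the transcriptome few single genes passed the threshold. Of 18098 genes tested 5 were called at an adjusted p under 0.05, which is 0.0276%. Mlkl, Dnase1l3, Fcgr2b and Flt4 fell (0.0221% of genes) and Saa4 rose (0.00553%). Dnase1l3 and Fcgr2b belong to the sinusoidal endothelial list and Flt4 is an endothelial receptor outside it, so all 3 other genes that fell are known from vessel lining cells. At the laxer limit of 0.1 there were 41 genes (0.227%), 33 lower (0.182%) and 8 higher (0.0442%). DESeq2, run on the same counts, called 282 genes lower (1.56%) and 100 higher (0.555%), the 5 of edgeR among them. At an unadjusted p under 0.05 there were 1501 lower genes (8.29%) and 1305 higher (7.21%), and that 46.5% share of higher genes depends on the scaling. With library size alone in place of TMM the share was 10.8% and the median of all genes moved by -0.17 on the log2 scale. The median over all 18098 genes was 0.01. In 1955 genes (10.8%) all Mlkl-/- HFD libraries were below all wild-type ones, and in 1917 (10.6%) they were above.

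**Figure D1:**
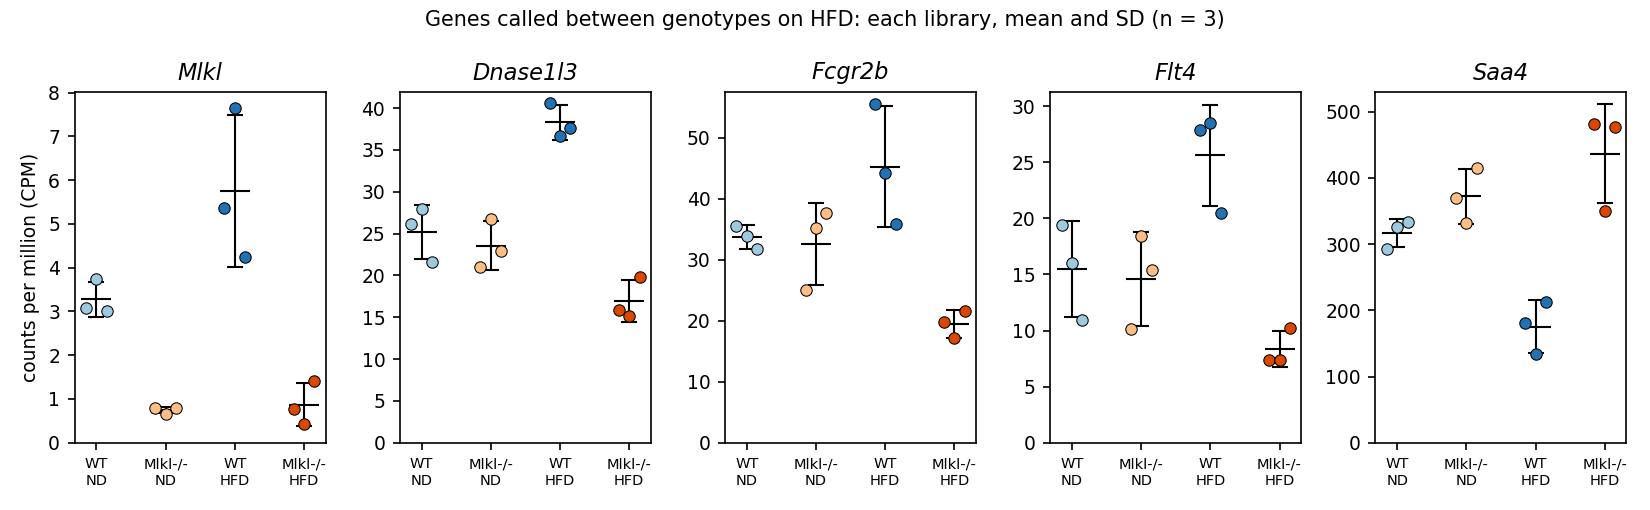
CPM of the 5 called genes in each of the 12 libraries, by group, with the mean (wide bar) and SD (whiskers, n = 3). On HFD the genotypes do not overlap in any of the 5 genes, and on ND they overlap in all but Mlkl.

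Dnase1l3 encodes a secreted DNase that digests chromatin released from dying cells, and in liver it is a gene of sinusoidal endothelium and some macrophages. It lies on chromosome 14 at 7964533 to 7994573. Wild-type HFD replicates held 40.6, 36.7 and 37.6 CPM and Mlkl-/- replicates 15.8, 15.2 and 19.9. The replicates of each genotype lay close together and far from the other genotype. The mean fell from 38.3 ± 2.06 to 17.0 ± 2.53 CPM (SD, n = 3), 2.25-fold, or -1.17 ± 0.15 on the log2 scale (SE; adjusted p = 0.0166).

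Fcgr2b, on chromosome 1 at 170958617 to 170976547, encodes the inhibitory Fc receptor that takes up immune complexes in liver sinusoids and is also found on B cells and myeloid cells. It was at 55.6, 44.3 and 35.9 CPM in wild-type and 19.8, 17.1 and 21.7 CPM in Mlkl-/- livers. The lowest wild-type liver, replicate 3, was still above the highest Mlkl-/- liver. The log2 difference was -1.21 ± 0.18 (adjusted p = 0.0353). Flt4, on chromosome 11 at 49609263 to 49652739, encodes VEGFR3, a receptor of lymphatic and sinusoidal endothelium for VEGF-C. It was at 27.9, 28.5 and 20.4 CPM in wild-type and 7.39, 7.41 and 10.2 CPM in Mlkl-/- livers. The groups were separate and the difference, -1.62 ± 0.25, was 3.07-fold (adjusted p = 0.0424).

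Saa4, on chromosome 7 at 46727998 to 46732603, encodes the serum amyloid A that hepatocytes make constitutively and that circulates on high-density lipoprotein. It was at 181, 134 and 212 CPM in wild-type and 482, 351 and 477 CPM in Mlkl-/- livers. Every Mlkl-/- value was above every wild-type value, with a rise of 1.31 ± 0.18 on the log2 scale or 2.49-fold (adjusted p = 0.0201).

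The promoters of 3 of the called genes are printed because vessel genes and a hepatocyte gene moved in opposite directions. They are RefSeq sequences of GRCm38.p6, the assembly behind mm10, from 250 bases before to 50 bases after the start, read 5′ to 3′ along the gene. Capitals mark matches on either strand to AGATAA (a form of the GATA factor motif), CAGGAA (a form of the ETS factor motif), TTNCNNAA (a relaxed C/EBP motif) or GGGCGG (the GC box). Other forms of these motifs were not searched. Fcgr2b lies at chr1:170976022-170976321 on the minus strand, Flt4 at chr11:49609429-49609728 on the plus strand and Saa4 at chr7:46732554-46732853 on the minus strand.
Fcgr2b: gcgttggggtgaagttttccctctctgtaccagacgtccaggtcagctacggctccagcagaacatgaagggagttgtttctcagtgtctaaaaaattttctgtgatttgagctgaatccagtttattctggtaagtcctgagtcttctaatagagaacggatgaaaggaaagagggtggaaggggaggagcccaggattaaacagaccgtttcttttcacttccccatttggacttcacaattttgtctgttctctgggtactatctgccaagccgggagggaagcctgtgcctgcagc
Flt4: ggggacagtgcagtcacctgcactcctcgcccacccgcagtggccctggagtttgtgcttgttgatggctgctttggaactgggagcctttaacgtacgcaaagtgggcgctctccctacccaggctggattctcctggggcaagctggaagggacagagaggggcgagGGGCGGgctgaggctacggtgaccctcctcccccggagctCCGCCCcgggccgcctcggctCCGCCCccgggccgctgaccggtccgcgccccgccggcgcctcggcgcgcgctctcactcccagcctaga
Saa4: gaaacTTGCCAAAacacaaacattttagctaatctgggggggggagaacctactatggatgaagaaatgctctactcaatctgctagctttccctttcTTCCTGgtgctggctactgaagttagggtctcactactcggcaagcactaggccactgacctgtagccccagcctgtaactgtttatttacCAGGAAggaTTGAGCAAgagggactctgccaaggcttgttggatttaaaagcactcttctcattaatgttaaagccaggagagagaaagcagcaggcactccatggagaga
Flt4 held 3 GC boxes, Saa4 held 2 CAGGAA and 2 TTNCNNAA matches, and Fcgr2b held none of these 4 strings of letters. Of 32851 mouse promoters of this length, AGATAA is present in 11.2%, CAGGAA in 30.6%, TTNCNNAA in 40.7% and GGGCGG in 35.7%. The table held 9 promoters for 7 of the 15 sinusoidal endothelial genes, and CAGGAA was present in 5 of them, GGGCGG in 3, TTNCNNAA in 2 and AGATAA in 0. These are matches of letters and say nothing about which factor binds.

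Sinusoidal endothelial genes were lower as a list. All 15 listed genes were tested, 2 fell, 13 were lower at an unadjusted p under 0.05 and 12 had groups that did not overlap, beside 8.29% and 10.8% of all genes. All 15 log2 differences were negative, from -1.60 to -0.41, with a median of -0.89 against 0.01 for all genes. DESeq2 called 7 of the 15. It called 1.56% of all genes lower and 0.555% higher, the shares that go with each DESeq2 list count below. In whole liver, fewer cells of a type and less RNA per cell cannot be told apart, and that holds for each cell type below. Some lists below are counted again with an HFD library left out, where the number of all genes at an unadjusted p under 0.05 also moved. It was 2806 in the full fit. Without wild-type HFD replicates 1, 2 and 3 it was 2210, 1669 and 2985. Without Mlkl-/- HFD replicates 1, 2 and 3 it was 2083, 1857 and 3626. Within a title code 1 genotype is a single animal.

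Stab2, the scavenger receptor that clears hyaluronan from blood, stood at 56.8, 36.2 and 29.4 CPM in wild-type HFD replicates 1 to 3 and at 11.9, 11.7 and 16.9 CPM in Mlkl-/- replicates. Its groups did not overlap, and its difference of -1.60 was the widest of the list but was not called (adjusted p = 0.0868). Kdr, the VEGFR2 receptor, stood at 44.6, 33.3 and 30.9 against 16.2, 15.01 and 20.5 CPM (-1.07, adjusted p = 0.0883). Clec4g, the lectin LSECtin, was at 52.0, 39.4 and 39.6 against 25.0, 21.4 and 24.3 CPM (-0.89, adjusted p = 0.0613). In these genes too each Mlkl-/- library was below each wild-type library. Stab1 (-0.98), Oit3 (-1.003), Mmrn2 (-1.05), Pecam1 (-0.89), Cldn5 (-0.86), Bmp2 (-0.69) and Gpr182 (-0.66) had separate groups and adjusted p of 0.107 to 0.201. Egfl7 (-0.41), Vwf (-0.44) and Lyve1 (-0.69) had groups that overlapped. Lyve1, a hyaluronan receptor of sinusoids and lymphatics, ran from 5.30 to 21.8 CPM within wild-type livers alone.

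Genes known from vessels were also among those just outside the threshold. Aqp1, a water channel of endothelium and bile ducts, was at 97.6, 81.2 and 76.7 CPM in wild-type and 30.2, 35.8 and 49.4 CPM in Mlkl-/- livers (-1.15, adjusted p = 0.0518). Npr1, the receptor of atrial natriuretic peptide, was at 13.2, 10.8 and 11.6 against 4.34, 5.29 and 6.59 CPM (-1.13, adjusted p = 0.0613). Both had separate groups. The other lower genes with the smallest p were Osbpl3 (described with the lipid genes), Maged2 (-1.19), the plexin Plxnc1 (-1.12), the membrane skeleton protein Epb41l2 (-1.02) and the collagen VI chain Col6a3 (-1.38), with adjusted p of 0.0518 to 0.0613. Per library the endothelial list stood at 0.80, 0.41 and 0.12 in wild-type and at -0.56, -0.48 and -0.29 in Mlkl-/- replicates 1 to 3, as a mean deviation on the log2 scale. Every Mlkl-/- liver was below every wild-type liver, and wild-type replicate 3 and Mlkl-/- replicate 3 were nearest to each other.

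**Figure D2:**
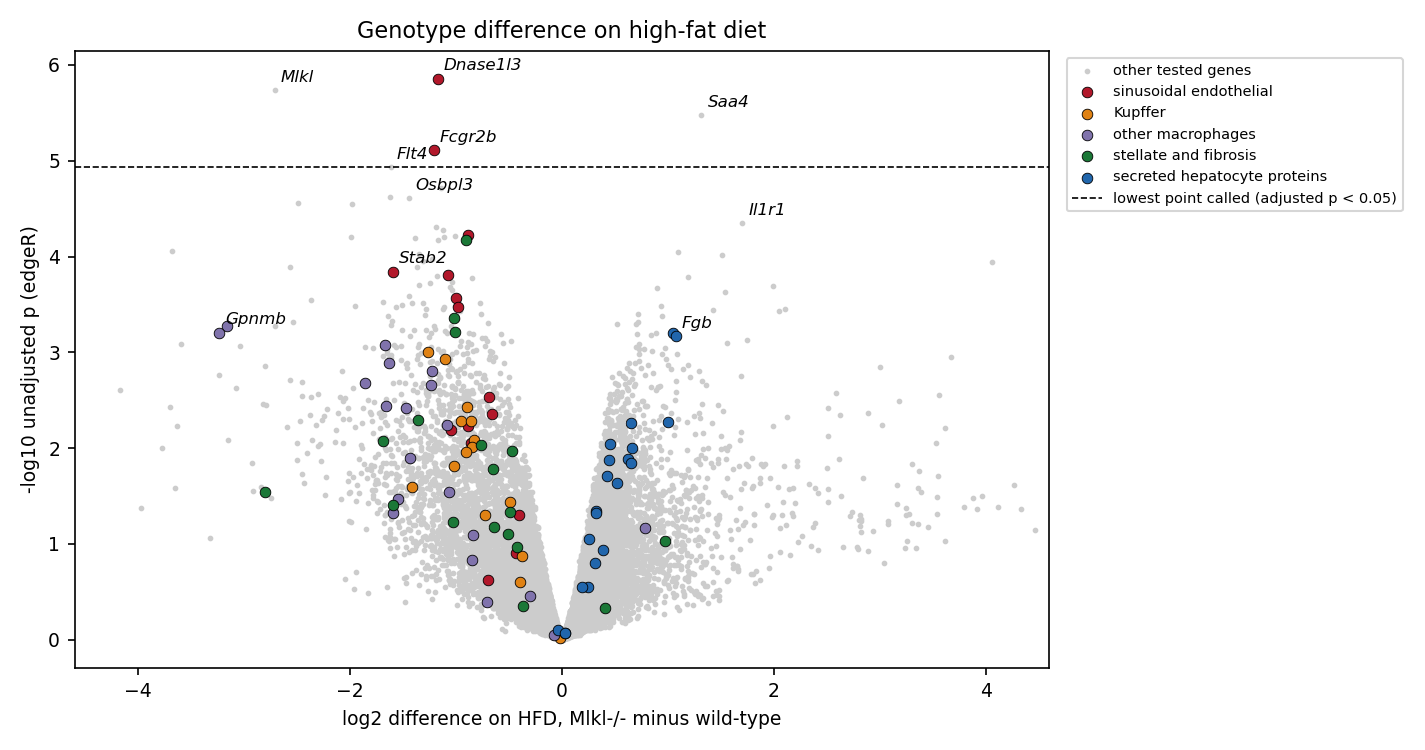
Log2 difference between genotypes on HFD (x axis, Mlkl-/- minus wild-type) against -log10 of the unadjusted edgeR p (y axis), 1 point per tested gene, with members of 5 lists in colour, 10 genes named and 15 genes beyond the x axis left out. The 15 sinusoidal endothelial genes lie left of 0, from -1.60 to -0.41, and 19 of the 20 secreted hepatocyte genes lie right of it.

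Kupffer cell genes were lower too. Of 15 genes tested 0 were called by edgeR and 4 by DESeq2, 11 were lower at an unadjusted p under 0.05 and 10 had separate groups, beside 8.29% and 10.8% of all genes, with a median of -0.86. The 11 became 3 within code 29. Clec4f, the lectin that marks mouse Kupffer cells, stood at 109, 80.2 and 76.4 CPM in wild-type and 40.2, 36.1 and 66.1 CPM in Mlkl-/- livers (-0.90, adjusted p = 0.163). Csf1r, the receptor on which macrophages depend, was at 57.0, 54.2 and 38.3 against 19.6, 18.7 and 31.2 CPM (-1.10, adjusted p = 0.130). In both genes Mlkl-/- replicate 3 was the highest of its group and near wild-type replicate 3. Timd4, a phosphatidylserine receptor of resident Kupffer cells, stood at 3.80, 4.37 and 4.34 against 2.05, 1.73 and 3.71 CPM (-0.73, adjusted p = 0.323), while the complement receptor Vsig4 had overlapping groups (-0.86). The smallest p of the list belonged to Cdh5, the cadherin of endothelial junctions (-1.26, adjusted p = 0.126), which is best known from vessels. Summed over the list the level was 525 to 716 CPM in wild-type and 289 to 492 CPM in Mlkl-/- livers.

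Recruited (monocyte-derived) and lipid-associated macrophages are the cells that gather around fat-laden hepatocytes. Their genes had the lowest median of the lists with 10 or more tested genes, at -1.34. All 20 were tested, and 0 were called by edgeR and 9 by DESeq2, which called 1.56% of all genes lower and 0.555% higher. At an unadjusted p under 0.05, 14 were lower, and 7 had separate groups, beside 8.29% and 10.8% of all genes. Gpnmb, a glycoprotein of lipid-laden macrophages, was at 7.25, 4.76 and 0.820 CPM in wild-type and 0.191, 0.529 and 0.618 CPM in Mlkl-/- livers (-3.24, adjusted p = 0.122). The macrophage elastase Mmp12 was at 13.1, 8.83 and 1.59 against 0.334, 0.626 and 1.61 CPM (-3.17, adjusted p = 0.119), and Trem2, a lipid receptor of these cells, at 3.00, 2.94 and 0.964 against 0.429, 0.674 and 1.07 CPM (-1.66, adjusted p = 0.162). In all 3 genes wild-type replicates 1 and 2 were high and replicate 3 was close to the Mlkl-/- livers. Spp1, osteopontin, showed the same split at 59.3, 117 and 19.8 against 18.7, 22.7 and 25.8 CPM. As a list the mean deviation was 0.91, 1.17 and -0.31 in wild-type livers against -1.07, -0.63 and -0.06 in Mlkl-/- replicates, so wild-type replicate 3 lay among the Mlkl-/- livers. With each HFD library left out in turn, 0 of the 20 were called, except 7 without that library (median -1.60). Without wild-type replicate 2 the median was -0.94 with 11 lower at an unadjusted p under 0.05, and within code 29 1 was.

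Stellate cell and fibrosis genes had 0 called of 19 by edgeR and 4 by DESeq2, with 11 lower at an unadjusted p under 0.05, 5 with separate groups, beside 8.29% and 10.8% of all genes, and a median of -0.65. Tgfbi, a matrix protein induced by TGF-beta, stood at 52.3, 46.7 and 36.7 CPM in wild-type and 21.5, 23.2 and 27.8 CPM in Mlkl-/- livers (-0.91, adjusted p = 0.0613). Reln, secreted by stellate cells, stood at 64.1, 44.7 and 35.8 against 21.4, 22.96 and 27.2 CPM (-1.02, adjusted p = 0.116). Both had separate groups. The collagens did not: Col3a1 was at 84.7, 81.3 and 23.5 CPM in wild-type and 9.30, 20.9 and 28.7 CPM in Mlkl-/- livers (-1.69, adjusted p = 0.198). Col1a1 followed with 22.8, 24.1 and 4.00 against 2.58, 6.30 and 7.95 CPM (-1.59, adjusted p = 0.295), again with wild-type replicate 3 among the Mlkl-/- livers. Lrat, which stores vitamin A in quiescent stellate cells, had overlapping groups (-0.76, adjusted p = 0.203). Des, a filament gene of stellate and muscle cells, was highest at 17.1 CPM in Mlkl-/- replicate 2, the library with muscle transcripts, and at 3.05 to 5.16 CPM in the others. With each HFD library left out in turn, 0 of the 19 were called, except 6 without wild-type replicate 3 (median -0.97). At an unadjusted p under 0.05, 6 were lower without wild-type replicate 1, 7 without wild-type replicate 2, 7 without Mlkl-/- replicate 1 and 3 within code 29.

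**Figure D3:**
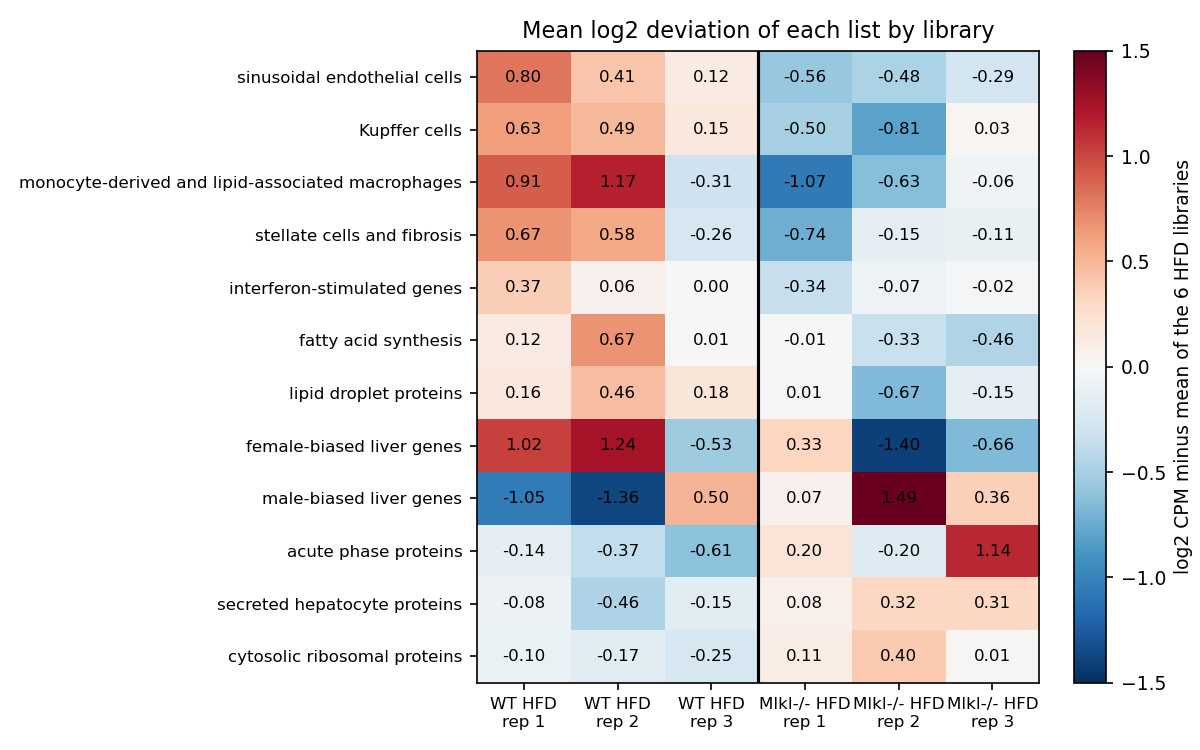
Mean log2 deviation of 12 gene lists in each HFD library from the mean of the 6 libraries, with the value in each cell. The endothelial row is above 0 in the 3 wild-type columns and below 0 in the 3 Mlkl-/- columns, whereas wild-type replicate 3 is at -0.31 for macrophage genes and at 0.50 for male-biased genes, away from wild-type replicates 1 and 2.

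Products of hepatocytes had a median above 0. Of 20 secreted hepatocyte proteins 0 were called by edgeR and 4 by DESeq2, 13 were higher and 0 lower at an unadjusted p under 0.05, and 14 had separate groups, beside 7.21% and 10.6% of all genes, with a median of 0.43. The 13 became 4 without Mlkl-/- replicate 2, the liver with muscle transcripts, 6 without wild-type replicate 2 and 8 with library size alone (median 0.26). All genes at that p, in either direction, went from 2806 to 1857, 1669 and 3153 in these settings. The fibrinogen chains led. Fgb was at 2486, 1876 and 2415 CPM in wild-type and 4194, 3718 and 6349 CPM in Mlkl-/- livers (1.07, adjusted p = 0.124), and Fgg at 2170.8, 1671 and 2090 against 3825, 3003 and 5425 CPM (1.05, adjusted p = 0.122). Neither pair of groups overlapped, and the highest value of each was in Mlkl-/- replicate 3. Alb, the most abundant plasma protein, differed less, at 58107, 40801 and 43069 against 51495, 70724 and 54120 CPM (0.31, adjusted p = 0.486). The hepatocyte marker list had 6 of 14 genes higher and 0 lower at an unadjusted p under 0.05, with the same median of 0.43, and 3 higher without wild-type replicate 2 or Mlkl-/- replicate 2. Periportal genes of urea and glucose metabolism had 8 of 18 higher and 0 lower (median 0.59), with Cdh1 (0.92) and arginase Arg1 (0.58) among them, but 1 of the 18 had separate groups. That list stood at 0.70 in Mlkl-/- replicate 2, the liver with muscle transcripts, and at 0.08 and 0.01 in Mlkl-/- replicates 1 and 3, both below wild-type replicate 1 at 0.11. Without Mlkl-/- replicate 2, 2 of the 18 were higher (median 0.23), and without wild-type replicate 2, 3 were, while pericentral genes had 0 of 16 higher and 1 lower, the ammonium channel Rhbg (-1.38), with a median of -0.09. Endothelial, macrophage and stellate genes and hepatocyte products had median differences on opposite sides of 0, although wild-type HFD replicate 3 was below 0 in the macrophage, stellate and secreted hepatocyte lists alike (-0.31, -0.26 and -0.15). Their part in each other's values was not tested.

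The acute phase list holds mostly plasma proteins that hepatocytes make under inflammatory cytokines, and also the signalling genes Il6ra, Stat3 and Socs3. It had 1 riser among 22 genes, Saa4, which is the constitutive serum amyloid A described above. All 22 log2 differences were above 0, 10 at an unadjusted p under 0.05 beside 7.21% of all genes, with a median of 0.79. Socs3, the feedback inhibitor of cytokine signalling, was at 4.77, 5.80 and 4.72 CPM in wild-type and 13.2, 7.51 and 13.1 CPM in Mlkl-/- livers (1.14, adjusted p = 0.138). The groups were separate. Inducible Saa1 differed by 2.82 but rested on a single liver, with 103, 96.1 and 40.5 CPM in wild-type and 269, 123 and 1304 CPM in Mlkl-/- replicates (adjusted p = 0.330). Saa2, a near-identical copy of Saa1 with which it may share reads, was at 1223 CPM in the same replicate 3 and at 33.7 to 201 CPM elsewhere. Without Mlkl-/- HFD replicate 3 the list median was 0.32 with 5 higher at that p. The 10 became 6 without wild-type replicate 2 or 3 and 4 with library size alone. Within title code 25 the median was 0.16 against 1.42 within code 29. On ND the list median was 0.65.

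Other hepatocyte genes among the 8 higher genes with the smallest p were Foxa3, a liver transcription factor, at 25.1, 17.0 and 27.9 against 49.6, 62.7 and 36.7 CPM (1.09, adjusted p = 0.0728). The vasopressin receptor Avpr1a was at 4.97, 3.43 and 8.15 against 10.2, 22.2 and 15.04 CPM (1.53, adjusted p = 0.1004). The disulfide isomerase Pdia5 (0.89), the proteoglycan Sdc4 (0.71), the aminotransferase Kyat1 (0.94) and the major urinary protein pseudogene Mup-ps21 (1.43), whose reads may come from its near-identical relatives, also had separate groups. Their adjusted p ran from 0.0962 to 0.112.

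Cytosolic ribosomal protein genes were higher in all 28 cases, 16 at an unadjusted p under 0.05 and 23 with separate groups. Of all genes 7.21% were higher at that p and 10.6% were higher with separate groups. In the ribosomal list 0 were called by edgeR and 2 by DESeq2, with a median of 0.34. Rps27 was at 32.4, 33.3 and 27.8 CPM in wild-type and 44.4, 64.4 and 45.2 CPM in Mlkl-/- livers (0.72, adjusted p = 0.119). Rps14 was at 103, 96.9 and 104 against 130, 151 and 133 CPM (0.45, adjusted p = 0.157). These groups were separate, but with library size in place of TMM only 3 of the 28 had an unadjusted p under 0.05 and the median was 0.16, next to an all-gene median of -0.16. Without Mlkl-/- HFD replicate 2, the liver with muscle transcripts, 4 did, with a median of 0.20. Nuclear-encoded respiratory chain subunits had 8 of 27 higher and 0 lower, with a median of 0.26, such as Cox6c (0.44) and Cox5b (0.38). The 8 became 0 without wild-type replicate 3 or Mlkl-/- replicate 1 and 1 without Mlkl-/- replicate 2, and with library size alone 0 were higher and 1 lower.

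Among genes of lipid storage 0 were called by edgeR, and Osbpl3 had the smallest p. Osbpl3, a lipid-transfer protein of the oxysterol-binding family, was at 37.4, 58.5 and 36.4 CPM in wild-type and 14.5, 19.4 and 14.9 CPM in Mlkl-/- livers. The groups were far apart, with a difference of -1.44 ± 0.24 or 2.72-fold that lay just past the threshold (adjusted p = 0.0518). On ND Osbpl3 was lower in both genotypes, at 5.43, 6.83 and 4.81 against 3.68, 2.61 and 1.78 CPM, a difference of -1.08 (adjusted p = 0.428), so the genotypes were separate on both diets. Of 18 lipid droplet genes 3 were lower and 0 higher at an unadjusted p under 0.05, and 6 had lower and 1 higher separate groups (median -0.31), beside 8.29% of all genes lower at that p and 10.8% lower with separate groups. Plin4, a droplet coat protein, was at 61.2, 104 and 46.7 against 24.0, 21.6 and 31.2 CPM (-1.47, adjusted p = 0.138), and Lipa, the lysosomal lipase, at 263, 363 and 259 against 182, 157 and 206 CPM (-0.70, adjusted p = 0.119). Both had separate groups. The droplet-fusion genes Cidea and Cidec and the coat gene Plin2 had their lowest value in Mlkl-/- replicate 2. Cidec was at 96.0, 134 and 78.7 CPM in wild-type and 60.4, 9.48 and 55.0 CPM in Mlkl-/- livers (-1.31, adjusted p = 0.335), and Cidea at 19.8, 27.9 and 13.8 against 5.68, 0.529 and 13.7 CPM (-1.62, adjusted p = 0.354). Plin2 overlapped (-0.53, adjusted p = 0.389).

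Enzymes that make triglyceride had 3 of 14 tested genes lower and 0 higher at an unadjusted p under 0.05, with a median of -0.22, and 1 lower without wild-type replicate 2. Of all genes 8.29% were lower and 7.21% higher at that p. Gpam, which starts glycerolipid synthesis, was at 223, 392 and 228 CPM in wild-type and 103, 112 and 162 CPM in Mlkl-/- livers (-1.16, adjusted p = 0.199). Mogat1 was at 9.73, 12.0 and 6.70 against 5.82, 0.529 and 4.37 CPM (-1.41, adjusted p = 0.242). In both the groups were separate. The terminal acyltransferases Dgat1 and Dgat2 stood at 0.03 and 0.14. Cd36, a fatty acid transporter, was at 260, 325 and 160 against 121, 42.5 and 147 CPM (-1.26, adjusted p = 0.240) and was, with Fabp4 (-1.09), a fatty acid carrier of adipocytes, macrophages and endothelium, 1 of the 2 lower genes of 15 in lipid uptake (median 0.05). Apolipoproteins and lipoprotein assembly had 6 of 20 higher and 0 lower (median 0.19), such as Apom (0.67) and Apoc1 (0.46). The 6 became 2 without wild-type replicate 2 or without Mlkl-/- replicate 2, and with library size alone 1 was higher and 2 lower (median 0.02).

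Fatty acid synthesis genes had 8 of 22 lower and 0 higher at an unadjusted p under 0.05, beside 8.29% and 7.21% of all genes. In that list 0 were called by edgeR and 1 by DESeq2, with a median of -0.61. Scd1, the desaturase that makes oleate, was at 17040, 23117 and 11614 CPM in wild-type and 8736, 6215 and 11884 CPM in Mlkl-/- livers (-0.95, adjusted p = 0.164). Fasn, fatty acid synthase, was at 480, 960 and 347 against 404, 343 and 250 CPM (-0.84, adjusted p = 0.314), with Acaca (-0.68) and Elovl6 (-0.94) of the same pathway alike. Wild-type replicate 2 was the highest liver in each of these 4 genes, and the groups overlapped. Without that library 1 of the 22 genes had a lower unadjusted p under 0.05 and the median was -0.29. Fatty acid oxidation genes had 6 of 29 lower and 0 higher, with a median of -0.19. The 6 became 1 without Mlkl-/- replicate 2, 2 without wild-type replicate 2, 3 without wild-type replicate 1 or Mlkl-/- replicate 3 and 0 within code 29. On ND 12 of the 29 were lower, beside 2.7% of all genes there, with a median of -0.29. The lipid-sensing receptor Ppara was at 170, 197 and 203 against 77.2, 102 and 156 CPM (-0.77, adjusted p = 0.270). Peroxisomal thiolase Acaa1b was also lower in each Mlkl-/- liver (-0.66, adjusted p = 0.245). Cholesterol synthesis had 0 of 25 lower and 1 higher, Ebp (0.36), with a median of -0.15.

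**Figure D4:**
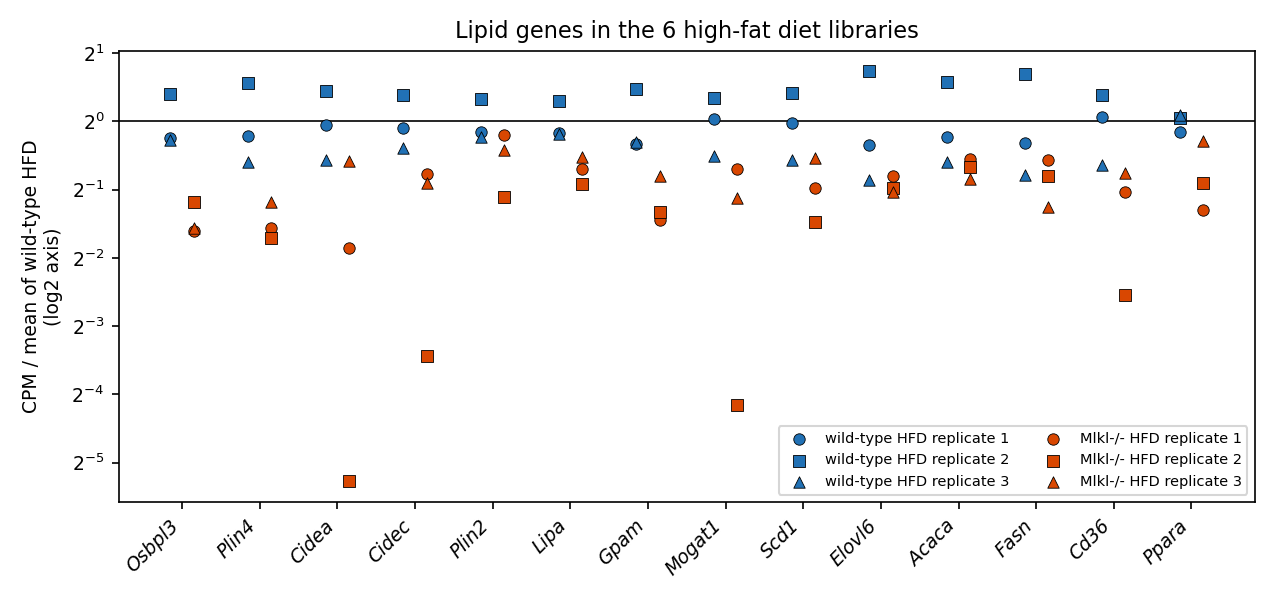
CPM of 14 lipid genes in the 6 HFD libraries, divided by the mean of the 3 wild-type HFD libraries, on a log2 axis (blue, wild-type; orange, Mlkl-/-; circle, square and triangle, replicates 1, 2 and 3). Osbpl3, Gpam, Ppara, Plin4, Lipa, Cd36, Cidea, Cidec and Mogat1 separate the genotypes, Cidea only barely. From Plin4 on in that order, the lowest value is in Mlkl-/- replicate 2. Fasn and Elovl6 are highest in wild-type replicate 2.

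Adipocyte genes, listed as a possible mark of fat tissue taken with the liver, had 3 of 10 lower and 0 higher (median -0.88, and -1.01 on ND). The list does not mark fat tissue alone. Plin4, Lipe and Pnpla2 are also members of the lipid droplet list, and Fabp4 of the macrophage list. At an unadjusted p under 0.05, as used for these counts, 8.29% of all genes were lower and 7.21% higher. Adipoq was at 0.0801, 3.13 and 3.33 CPM in wild-type and 0.238, 1.16 and 0.701 CPM in Mlkl-/- livers, so wild-type replicate 1 lacked the signal that its group shows. The summed list ran from 1108 to 1727 CPM in wild-type and from 1072 to 1438 CPM in Mlkl-/- livers. That sum follows Car3, which held 408906 counts over all 12 libraries, against 250 for Adipoq, 233 for Plin1 and 143 for Lep. It cannot be read as an amount of fat tissue. Any part of fat tissue in the lipid droplet values was not tested.

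Genes that differ between the sexes in mouse liver, set there by the rhythm of growth hormone, varied widely on HFD. Of 20 male-biased genes 9 were higher and 0 lower at an unadjusted p under 0.05 (0 called by edgeR, 3 by DESeq2, median 0.91), but 2 had separate groups. Of all genes 7.21% were higher and 8.29% lower at that p, and 10.6% were higher with separate groups. Mup20, a major urinary protein, was at 4839, 3615 and 8515 CPM in wild-type and 9213, 15124 and 8300 CPM in Mlkl-/- livers (0.94, adjusted p = 0.179). Serpina1e, an antiprotease with near-identical relatives, was at 1614, 894 and 1673 against 1643, 7113 and 3233 CPM (1.52, adjusted p = 0.164). Their groups overlapped, whereas those of the elongase Elovl3 (0.93) and the glutathione transferase Gstp1 (1.00) did not. The list's mean deviation was -1.05, -1.36 and 0.50 in wild-type livers against 0.07, 1.49 and 0.36 in Mlkl-/- replicates, so wild-type replicate 3 was above Mlkl-/- replicates 1 and 3. The 9 became 16 without wild-type replicate 3, 4 without wild-type replicate 1 or 2, 6 without Mlkl-/- replicate 2 and 0 within code 29. Female-biased genes mirrored this at 1.02, 1.24 and -0.53 against 0.33, -1.40 and -0.66, with 2 of 14 tested genes lower, 0 higher and a median of -0.75. Cyp2b9 and Cyp2b13, female-biased P450 genes, were high in wild-type replicates 1 and 2 (55.2 and 107 CPM of Cyp2b9) and low in replicate 3 (1.59 CPM). In Mlkl-/- livers Cyp2b9 was at 15.6, 0.0481 and 0.907 CPM. The growth hormone axis itself had 0 of 12 genes at an unadjusted p under 0.05 and 0 called by edgeR, with a median of -0.02.

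Interferon-stimulated genes had a median slightly below 0. Of 34 tested, 7 were lower and 1 higher at an unadjusted p under 0.05, beside 8.29% and 7.21% of all genes. Separate groups were seen in 10 lower and 2 higher, beside 10.8% and 10.6% of all genes. In the list 0 were called by edgeR and 3 by DESeq2, and the median was -0.25. Within code 25, 16 were lower and 0 higher, and within code 29, 2 lower and 4 higher, and 3 were lower without wild-type replicate 1 or Mlkl-/- replicate 1. Gbp3, an interferon-induced GTPase, was at 12.3, 9.74 and 8.34 CPM in wild-type and 4.39, 5.49 and 5.15 CPM in Mlkl-/- livers (-1.01, adjusted p = 0.107). Its groups were separate, as were those of Ifit2 (-1.51, adjusted p = 0.107). Antigen presentation genes had 3 of 18 lower and 1 higher (median -0.04), led by the class II genes H2-DMa (-1.17) and H2-DMb1 (-1.23).

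In NF-kB and cytokine signalling 5 of 20 tested genes were lower and 1 higher at an unadjusted p under 0.05, with a median of -0.33. At that p 8.29% of all genes were lower and 7.21% higher. The 5 became 2 without wild-type replicate 1, wild-type replicate 2 or Mlkl-/- replicate 1. The higher gene was Il1r1, the signalling receptor of interleukin 1, at 23.4, 19.7 and 25.6 CPM in wild-type and 95.3, 83.8 and 44.7 CPM in Mlkl-/- livers. The groups were separate with a 3.25-fold difference of 1.70 ± 0.28 (adjusted p = 0.0613), and the code 29 liver, replicate 3, was the lowest Mlkl-/- value. On ND Il1r1 was at 48.4, 52.0 and 38.2 against 85.9, 50.01 and 94.3 CPM (0.73, adjusted p = 0.788), with groups that overlapped. Tnfaip3 (A20), which restrains NF-kB and necroptosis, was at 6.93, 7.25 and 4.58 against 2.24, 3.37 and 2.31 CPM (-1.25, adjusted p = 0.0948), again with separate groups. Tnf and Il6 were too low to be tested, with 47 and 5 counts in all 12 libraries.

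The pathway that ends in MLKL showed little else. Of 21 necroptosis genes Mlkl fell, and Mlkl and Tnfaip3 were the 2 lower and 0 the higher genes at an unadjusted p under 0.05, with a median of 0.02. The upstream kinase Ripk3 was scarce, at 1.16, 1.06 and 0.482 CPM in wild-type and 0.620, 0.289 and 0.742 CPM in Mlkl-/- livers (-0.71, adjusted p = 0.592). Ripk1 (0.18), the nucleic acid sensor Zbp1 (0.26) and Casp8, the protease that holds necroptosis in check (0.01), had overlapping groups or small differences with adjusted p of 0.530 to 0.988. Apoptosis genes had 3 of 21 lower and 1 higher, beside 8.29% and 7.21% of all genes, with a median of 0.09. Among them were Apaf1 of the apoptosome (-0.96) and the BH3 gene Pmaip1 (-1.17). Pyroptosis genes had 2 of 15 lower and 1 higher with a median of -0.44, the lower ones being the sensors Nlrp3 (-1.91) and Aim2 (-1.67), each under 2 CPM in every HFD library.

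Bile acid genes had 5 of 22 lower and 1 higher at an unadjusted p under 0.05, with a median near 0. Of all genes 8.29% were lower and 7.21% higher at that p, which is used for each list below. The basolateral exporter Abcc3 was at 259, 308 and 219 CPM in wild-type and 139, 84.6 and 159 CPM in Mlkl-/- livers (-1.04, adjusted p = 0.0948), and the canalicular exporter Abcc2 at 561, 611 and 508 against 301, 363 and 410 CPM (-0.64, adjusted p = 0.152). Both were separate. Glucose and glycogen genes had 3 of 15 lower and 2 higher, such as the branching enzyme Gbe1 (-0.68) and the glycogen targeting subunit Ppp1r3c (0.54). Unfolded protein response genes had 4 of 19 higher and 0 lower (median 0.28), with Syvn1 (0.90) and Xbp1 (0.66) among them and 1 gene with separate groups. Mlkl-/- replicate 2 (-0.19) was below wild-type replicate 3 (0.13) in that list, and the median was 0.05 without Mlkl-/- replicate 3 and 0.12, with 2 genes higher, without wild-type replicate 1. Insulin signalling (16 genes), P450 genes (30), NRF2 targets (21), ATF4 targets (19), clock (19) and cell cycle genes (18) had 0 to 3 lower and 0 to 2 higher each, and medians from -0.28 to 0.10. Lymphocyte genes had 1 of 15 lower, Themis (-2.13), and 2 higher, with Igkc at 58.1 and 30.8 CPM in Mlkl-/- replicates 2 and 3 and at 2.43 to 4.29 CPM in the other 4 HFD livers. Neutrophil, cholangiocyte and red blood cell genes had 0, 2 and 0 lower and 0, 1 and 0 higher of 4, 10 and 5 tested.

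The same contrast on ND involved other animals. edgeR called 1 gene there (0.00553%), Mybph, which fell by 1.53 on the log2 scale (adjusted p = 0.0193) and stood at -0.54 on HFD (adjusted p = 0.209). At an unadjusted p under 0.05 there were 997 genes (5.51%), 488 lower (2.7%) and 509 higher (2.81%), against 2806 on HFD. Groups did not overlap on ND in 5.56% of genes in the lower and 4.93% in the higher direction. Of the 5 genes called on HFD, the ND differences were -2.12 for Mlkl, -0.10 for Dnase1l3, -0.04 for Fcgr2b, -0.08 for Flt4 and 0.23 for Saa4. Dnase1l3 stood at 25.2 ± 3.23 CPM in wild-type and 23.6 ± 2.94 in Mlkl-/- ND livers (SD, n = 3), between the 2 HFD groups. Flt4 stood at 15.5 ± 4.28 and 14.6 ± 4.18 CPM, also between them. List medians on ND were -0.24 for endothelial, 0.00 for Kupffer, 0.39 for macrophage, 0.03 for stellate and 0.05 for secreted hepatocyte genes. For cholesterol synthesis 14 of 25 genes were higher on ND with a median of 0.52.

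Whether the genotype effect differed between the diets was tested by the interaction term. edgeR called 0 genes and limma-voom 0, and DESeq2 called 48. In edgeR 1889 (10.4%) had an unadjusted p under 0.05, 5.19% with a negative and 5.24% with a positive term. With 1 library left out that number ran from 1247 to 3278, highest without Mlkl-/- ND replicate 1. The interaction was -1.07 for Dnase1l3, -1.17 for Fcgr2b, -1.54 for Flt4 and 1.08 for Saa4, each with an adjusted p of 0.338, and -0.59 for Mlkl (adjusted p = 0.707). So no gene named here was shown by edgeR to respond to the loss of Mlkl on HFD alone. By list 8 of 15 endothelial, 9 of 15 Kupffer, 14 of 20 macrophage and 10 of 19 stellate genes had an unadjusted interaction p under 0.05, beside 10.4% of all genes. Of 25 cholesterol synthesis genes 12 did, such as Hmgcs1, at 1.16 on ND and -0.69 on HFD (interaction adjusted p = 0.392).

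**Figure D5:**
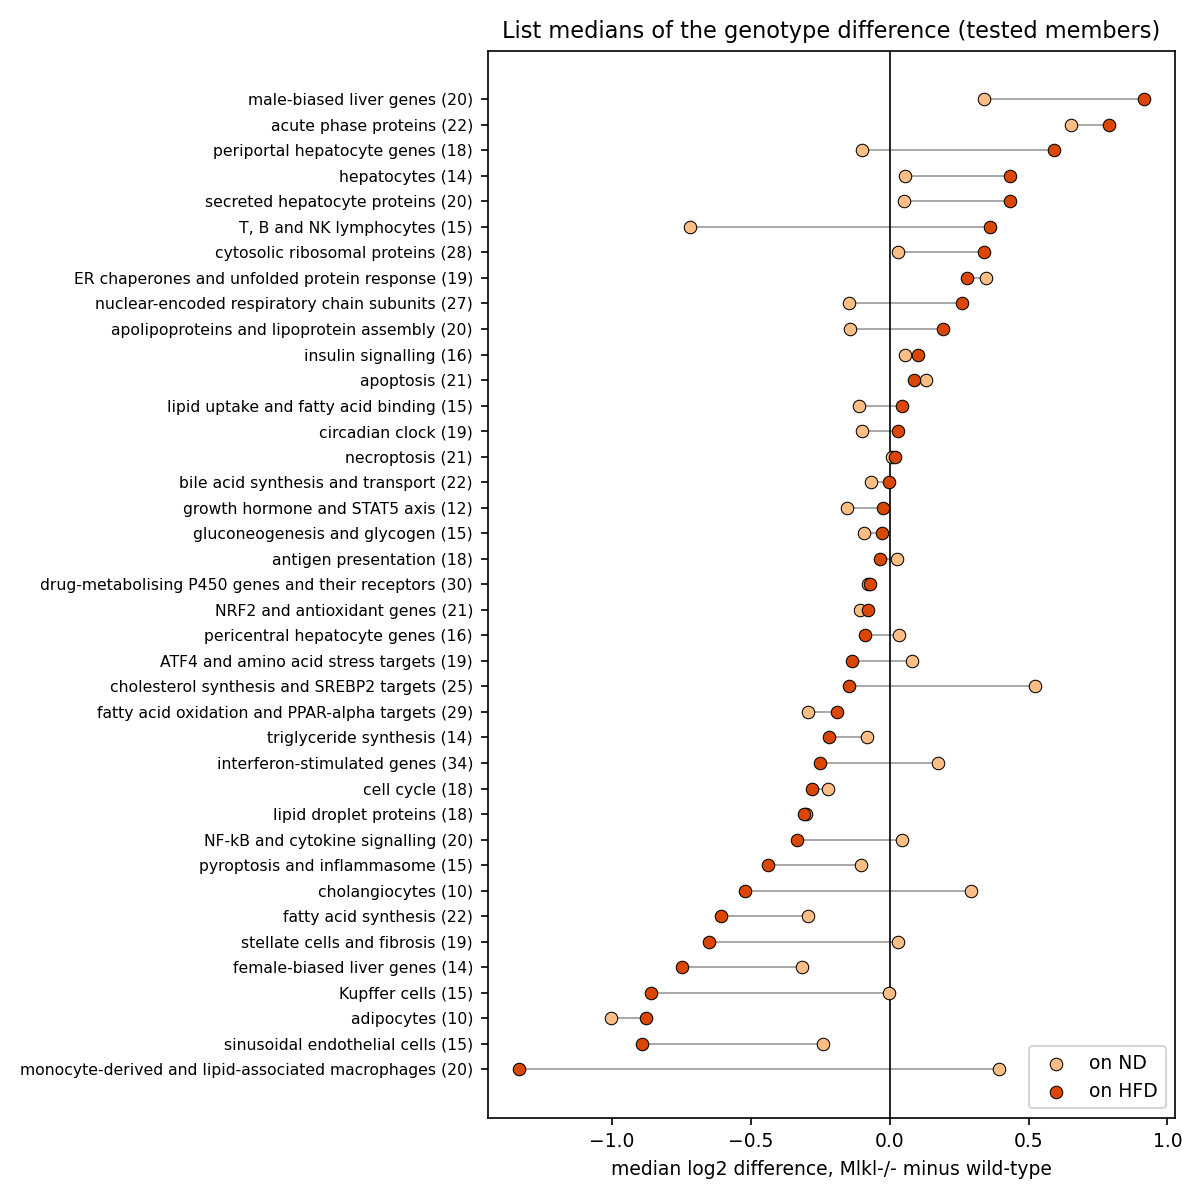
Median log2 difference between genotypes (Mlkl-/- minus wild-type) over the tested members of each list with 10 or more of them, on HFD (dark) and ND (light), with the number tested in brackets. Macrophage genes have the lowest HFD median, -1.34, and stand at 0.39 on ND, whereas the acute phase list is above 0 on both diets, at 0.79 and 0.65.

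Title code and single libraries bear on these values. Within code 25, 1 wild-type against 2 Mlkl-/- livers, the endothelial median was -1.37. Within code 29, 2 wild-type against 1 Mlkl-/- liver, it was -0.56. The 5 called genes kept their direction in both codes, but their separate groups fixed that in advance, so only the sizes differ. There Dnase1l3 stood at -1.39 and -0.90, Fcgr2b at -1.59 and -0.89, Flt4 at -1.91 and -1.26 and Saa4 at 1.20 and 1.46 (codes 25 and 29). Kupffer genes had medians of -1.33 and -0.33 and macrophage genes of -1.69 and -0.82. Title code was also added to the fit as a term of 2 levels. It joined code 23 on ND with code 25 on HFD, and code 27 with code 29, a pairing the labels do not give. In that fit 3 genes were called, Mlkl, Dnase1l3 and Saa4, and Fcgr2b (adjusted p = 0.0638) and Flt4 (adjusted p = 0.0825) were not. In a fit with the 8-locus level added as high or low, cut at 1000 raw CPM, 8 genes were called, all 5 among them. On HFD only wild-type replicate 1 was low, and on ND only Mlkl-/- replicate 1 was high. The term rests on those libraries and cannot be told apart from their other traits. Leaving out wild-type HFD replicate 1, wild-type HFD replicate 2 or Mlkl-/- HFD replicate 1 left 0 calls by edgeR, with 2210, 1669 and 2083 genes at an unadjusted p under 0.05, and leaving out Mlkl-/- HFD replicate 2 left 1. Without wild-type HFD replicate 3, Mlkl-/- HFD replicate 3 or Mlkl-/- ND replicate 1 the count was 189, 21 and 75. Without any 1 of the 6 HFD libraries the endothelial median stayed between -1.07 and -0.74, with 12 to 14 of the 15 genes lower at an unadjusted p under 0.05.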

How the data were processed

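Whole-liver RNA was profiled by QuantSeq 3′ sequencing (Lexogen) on a NextSeq 500. The authors deposited 1 table of whole-number counts per gene, not normalized, for 12 libraries. Per the submitters' processing notes the tools were cutadapt 1.9, HISAT2, featureCounts and limma with mm10. The sources used here give no strand setting, so overlapping and antisense genes cannot be told apart. Libraries held 1 animal each by the animal numbers in the titles, and replicate numbers follow accession order and pair nothing. None of the 12 pairs of libraries within a group agreed within sampling noise.

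edgeR 4.0.16 (R 4.3.3) fitted all 12 libraries as 4 groups (TMM, filterByExpr with a minimum count of 10 and total of 15, robust quasi-likelihood test, 8 residual degrees of freedom), with Benjamini-Hochberg adjustment over 18098 tested genes of 51912. Log2 differences are Mlkl-/- minus wild-type, and CPM use TMM library sizes. Counts were simulated for 18098 genes from the means and dispersions of all 12 libraries, with no title code or 8-locus differences. Changes were placed in the Mlkl-/- HFD group, only in genes with a mean of at least 5 CPM. Of these the test recovered 70.0% of changes of 1 and 95.0% of changes of 2 on the log2 scale, with 7 false calls. Recovery for genes of lower CPM was not tested. Alternatives used limma 3.58.1 (voom) and DESeq2 1.42.0. Positions are from GENCODE M21.

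The gene lists and the members of the comparison were chosen with earlier results of these data known. Named genes are Mlkl, the called genes, the 8 per direction of lowest p with separate groups and at least 5 CPM, and per list the called or first 3 members with the 2 of lowest p. Predicted genes were passed over. Bmp2, Casp8, Cldn5, Col1a1, Col3a1, Dgat1, Dgat2, Egfl7, Gpr182, Kdr, Lyve1, Mmrn2, Mybph, Oit3, Pecam1, Ripk1, Ripk3, Saa1, Saa2, Stab1, Stab2, Vwf and Zbp1 were named after their values were seen. Counts at an unadjusted p and list medians describe these libraries and are no calls.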

Additional observations from a re-analysis of the deposited data

How the results depend on the processing

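The count of 5 genes called on HFD was 5 with RLE size factors and 4 with limma-voom. It was 36 with library size alone, 124 with no filter beyond 1 count, 382 with DESeq2 and 2 with a filter of 5 CPM in 3 libraries, where Mlkl is not tested. It was 3 without robust estimation, 2 with only the 2 groups compared, 3 with title code as a term, 8 with the 8-locus level as a term, 136 as an average over title codes, 134 within code 25 and 3 within code 29. Leaving out each library in turn gave 0 to 189. All 5 genes kept their direction wherever they were tested. For subsets of the libraries their separate groups on HFD fixed that in advance. The ND count of 1 was 10 with no filter, 45 with DESeq2, 0 with limma-voom, 0 with only the 2 groups, 2 with title code, 3 with the 8-locus level and 36 as an average over codes, and 0 to 6 with a library left out. The interaction count of 0 was 1 with no filter, 48 with DESeq2, 2 with the 8-locus level, 7 as an average over codes and 0 to 4 with a library left out. Mlkl stood at -2.71 with only the 2 groups (adjusted p = 0.0526), at -2.09 within code 29 (adjusted p = 0.449) and between -3.26 and -2.41 with a library left out.

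For 112 other genes named, 2527 values kept direction and side of the threshold, 194 passed it only under the alternative, 35 only in the fit as reported, and 29 changed sign, none of them in a called gene. Casp8 stood at -0.15 with library size alone, -0.0319 with the 5 CPM filter, -0.0274 with limma-voom, -0.0676 with title code, -0.0781 as an average over codes and -0.18 within code 29. Dgat1 stood at -0.14 with library size alone, -0.0078 with the 5 CPM filter, -0.0298 with the 8-locus level and -0.14 within code 29. Dgat2 stood at -0.027 with library size alone, -0.0029 with title code, -0.0458 with the 8-locus level and -0.16 within code 29. Zbp1 stood at -0.32 within code 25, Lyve1 at 0.0196 within code 29, and Adipoq at 0.42 as an average over codes and 3.04 within code 25. With a library left out, Casp8 ran from -0.2537 to 0.1275, Dgat1 from -0.036 to 0.1088 and Des from -0.16 to 1.3686, its negative value being that without Mlkl-/- HFD replicate 2. The causes were not tested. The list counts under other settings were chosen after seeing the data.

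No paired analysis was possible because the replicate numbers follow accession order and the labels pair no animals. With 3 animals a group an exact permutation test cannot go below 0.1. Within 1 title code a group holds 1 animal, which is assumed to vary like the others. Genes under about 1 CPM, Ripk3 among them, rest on few counts, and recovery at that level was not tested.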
